A study of Homo sapiens with 6 samples.

Results

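The unfolded protein response genes described here are 10 named genes, XBP1, ATF4, DDIT3, HSPA5, HSP90B1, CALR, PDIA4, DNAJB9, SDF2L1 and HERPUD1, out of 19987 protein-coding genes on chromosomes that held peaks. They were chosen by name, and a gene was scored in each library by the peaks that touched its RefSeq span on GRCh38 or lay within 1000 bp of it. The data are chromatin immunoprecipitation and sequencing (ChIP-seq) of TAF2 carrying a V5 tag, in a clone of HepG2. TAF2 belongs to TFIID, the complex that settles on core promoters before RNA polymerase II. V5 is a short peptide tag for which an antibody exists, and HepG2 is a cell line from a human liver tumour. The groups were 3 libraries immunoprecipitated with the V5 antibody and 3 control libraries, labelled input by treatment and IgG by library name, and all 6 came from the same tagged, otherwise untreated line, HepG2-TAF2-V5. No stress agent is named in the labels. A single clone stands for the line, and the labels do not say if each library had a culture of its own. The 3 V5 peak lists were the data used, and the control libraries give no values here.

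The unfolded protein response is set off when unfolded proteins build up in the endoplasmic reticulum. Sensors in its membrane signal through the transcription factors XBP1, ATF4 and ATF6, which raise the genes for chaperones, disulfide-forming enzymes and the machinery that removes misfolded proteins. Hepatocytes secrete most plasma proteins and carry a heavy folding load. Many genes of the response hold the endoplasmic reticulum stress element (ERSE) before their start, a CCAAT box bound by NF-Y and, at a fixed spacing, a CCACG bound by ATF6 or XBP1.

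A peak in any library was found at 4 of the 10 genes, XBP1, HSPA5, DDIT3 and HSP90B1, against 8.67% of all protein-coding genes. The other 6 had a peak in no library. XBP1 had 11 peaks spread over the 3 libraries, and HSPA5 had a peak in 2 libraries, at places that did not overlap. DDIT3 and HSP90B1 had a weak peak in 1 library each. A peak touched the 300 bp start window, from 250 bp before the start to 50 bp of transcript, in XBP1, HSPA5 and HSP90B1. These were 3 of the 10 members, against 2.61% of the 15813 protein-coding genes with a listed start. The DDIT3 peak lay outside that window, 254 to 413 bp upstream of the start and inside the span of the neighbouring gene MBD6.

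The bases just upstream of 6 starts are given here. They run 5′ to 3′ along the gene up to the base before the most upstream start in the RefSeq promoter table (GRCh38.p14), which held all 10 genes. XBP1, HSPA5 and HSP90B1 are shown because a peak covered this stretch, DDIT3 because its peak lay just beyond it, and CALR and HERPUD1 as genes with a stress element and no peak. Capitals mark a match to ERSE (CCAAT and CCACG with any 9 bases between them) or to its variant ERSE-II (ATTGG and CCACG with any 1 base between them) on either strand, and in DDIT3, which has neither, the CCAAT boxes.
XBP1: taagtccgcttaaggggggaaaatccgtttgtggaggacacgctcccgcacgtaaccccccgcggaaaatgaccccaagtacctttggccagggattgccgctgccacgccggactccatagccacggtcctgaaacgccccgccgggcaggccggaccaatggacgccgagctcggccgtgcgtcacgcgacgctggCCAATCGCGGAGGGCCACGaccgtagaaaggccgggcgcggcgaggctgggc
HSPA5: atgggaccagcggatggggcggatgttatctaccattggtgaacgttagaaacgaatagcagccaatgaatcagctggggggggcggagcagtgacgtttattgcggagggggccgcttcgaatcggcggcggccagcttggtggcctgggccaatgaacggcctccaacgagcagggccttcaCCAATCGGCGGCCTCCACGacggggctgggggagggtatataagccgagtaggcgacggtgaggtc
HSP90B1: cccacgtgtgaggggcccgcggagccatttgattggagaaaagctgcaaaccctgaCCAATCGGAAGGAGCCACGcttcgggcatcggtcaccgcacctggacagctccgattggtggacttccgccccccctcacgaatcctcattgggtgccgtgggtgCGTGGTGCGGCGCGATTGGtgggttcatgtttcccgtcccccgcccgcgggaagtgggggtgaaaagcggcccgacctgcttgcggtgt
DDIT3: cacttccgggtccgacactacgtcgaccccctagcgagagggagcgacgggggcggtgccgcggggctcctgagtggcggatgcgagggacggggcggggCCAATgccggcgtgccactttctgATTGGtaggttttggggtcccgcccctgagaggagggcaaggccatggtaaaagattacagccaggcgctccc
CALR: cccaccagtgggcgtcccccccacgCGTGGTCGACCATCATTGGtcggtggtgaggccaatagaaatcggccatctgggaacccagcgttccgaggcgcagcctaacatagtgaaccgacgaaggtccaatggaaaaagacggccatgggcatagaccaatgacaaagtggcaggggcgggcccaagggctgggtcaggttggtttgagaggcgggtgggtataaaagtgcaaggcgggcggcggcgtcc
HERPUD1: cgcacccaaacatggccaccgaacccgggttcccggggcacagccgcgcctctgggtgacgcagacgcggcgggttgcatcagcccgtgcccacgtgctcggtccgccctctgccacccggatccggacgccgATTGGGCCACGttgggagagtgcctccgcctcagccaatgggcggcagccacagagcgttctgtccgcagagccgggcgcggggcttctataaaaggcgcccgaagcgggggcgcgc
XBP1 is chr22:28800570-28800819 on the minus strand and HSPA5 is chr9:125241344-125241593 on the minus strand. HSP90B1 is chr12:103930160-103930409 on the plus strand. DDIT3 is chr12:57520518-57520714 on the minus strand, cut to 197 bases where the neighbouring gene MBD6 begins. CALR is chr19:12938359-12938608 and HERPUD1 is chr16:56931892-56932141, both on the plus strand.

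The ERSE was present in 4 of the 10 members within the 250 bp before the start, in XBP1, HSPA5, HSP90B1 and CALR, against 18 of 15813 protein-coding genes with a listed start (0.114%). ERSE-II was present in SDF2L1 and HERPUD1, against 12 of all these genes (0.0759%). The elements were defined on genes of this response, so their presence is background and not a result of these libraries. HSP90B1 held 2 ERSE matches, 1 on each strand. The CCAAT box alone (CCAAT) stood in 9 of 10 members, all but ATF4, against 34.4% of all starts, and it is also part of the ERSE. The exact letters TATAAA, a form of the TATA box, stood in ATF4, CALR and HERPUD1, against 9.36% of all starts. Other forms were not searched, so the tatataag near the end of the HSPA5 sequence was not counted. The matches therefore do not tell which members have or lack a TATA box. The XBP1 response element core TGACGTGG and the cyclic AMP element TGACGTCA were in no member, against 0.708% and 2.29% of starts. A C/EBP-ATF element (TGATGNAA), the kind of site that ATF4 uses, was in HERPUD1, against 2.21%. All motifs were searched on both strands of the same 250 bp, and a match describes letters and is no evidence of binding.

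Read against the background, the members with a peak numbered 3 of 10 in replicate 1 (3.70% of all protein-coding genes), 3 of 10 in replicate 2 (5.75%) and 1 of 10 in replicate 3 (4.87%). With any library the count was 4 of 10 (8.67%), with at least 2 libraries 2 of 10 (3.76%) and with all 3 libraries 1 of 10, XBP1 (1.90%). The members had spans of 1998 to 25455 bp. Among the 10245 protein-coding genes no longer than the longest member, 5.71% had a peak in any library, 2.34% in at least 2 and 1.21% in 3. The count of members in replicate 3 was XBP1 alone, so 9 of 10 members had no peak in that library. With so few genes each of them moves the share by 10 percentage points, and the members were named with earlier results known.

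**Figure D1:**
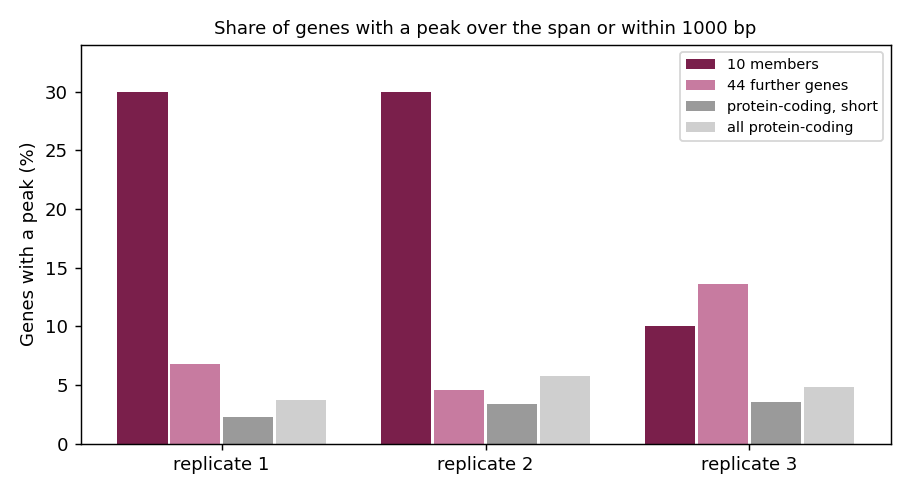
Percentage of genes with a peak over the span or within 1000 bp (y axis) in each V5 library (x axis), for the 10 members, 44 further genes of the response, the 10245 protein-coding genes no longer than the longest member ("short") and all 19987. The members stand highest in replicates 1 and 2, with 3 of 10 in each, and all protein-coding genes at 3.70, 5.75 and 4.87%.

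Across the 4 genes the 15 peaks were of low to middling strength with a few exceptions. The fold is the enrichment that the authors' caller gave a peak over background, and its percentile is the share of peaks in the same list with a fold at or below it. Folds ran from 3.52 to 8.42, against medians of 5.01, 5.25 and 5.03 over the 1599, 2557 and 1887 peaks of replicates 1, 2 and 3. Of the 15 peaks, 11 ranked below the middle of their list and 4 above the 80th percentile. Those 4 were 3 peaks at XBP1, in replicates 2 and 3, and 1 at HSPA5, in replicate 2. None of the members' peaks in replicate 1 reached the 50th percentile. The lists hold no read totals, so the depth behind these values is unknown.

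**Figure D2:**
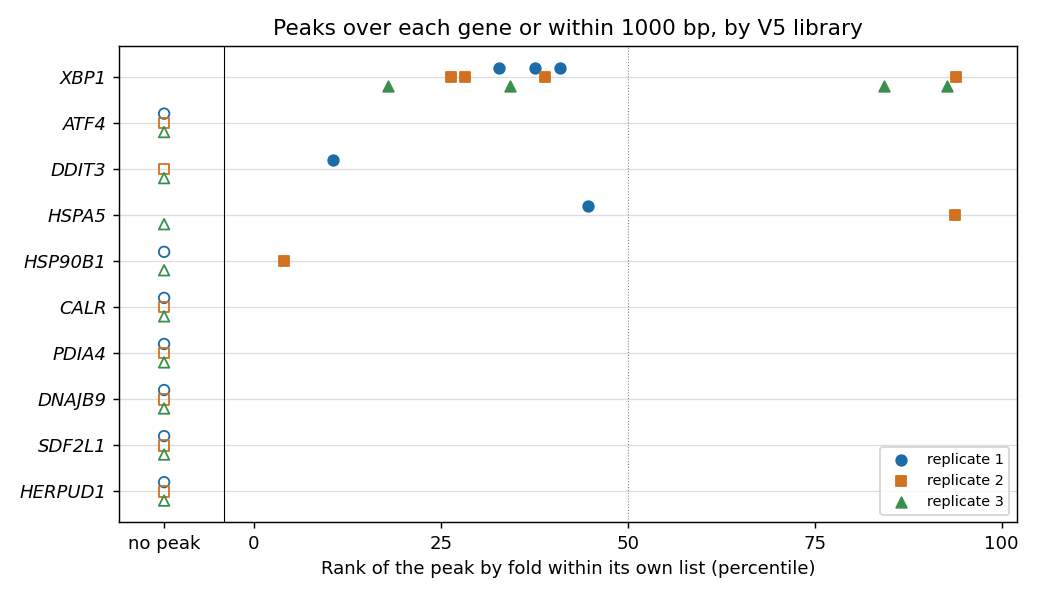
Percentile rank by fold of each peak within its own list (x axis) for each gene (rows) and V5 library (symbols). Open symbols at the left mark a library with no peak, and the dotted line marks the middle of a list. XBP1 has 11 filled symbols, 3 of them above the 80th percentile, and 6 genes have open symbols alone.

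Among the transcription factors, XBP1 held 11 of the members' 15 peaks. XBP1 is made active by unconventional splicing of its messenger RNA by the sensor IRE1, and it then drives chaperone and degradation genes. The gene (gene ID 7494, chr22:28794560-28800569, minus strand, 6010 bp) had 3 peaks in replicate 1, 4 in replicate 2 and 4 in replicate 3. They covered 570, 1072 and 1578 bp of the 8010 bp scored. All 3 peaks of replicate 1 had a fold under 5 and a −log10 q under 5, so with either limit XBP1 had peaks in replicates 2 and 3 alone and 0 members had a peak in all 3 libraries. Merged over the libraries they formed 5 places, of which 2 held peaks of all 3 libraries, 1 of 2 libraries and 2 of 1 library.

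The first shared place lay over the start of XBP1. Its peaks had folds of 4.47, 4.54 and 7.63 in replicates 1, 2 and 3 (percentiles 32.8, 28.2 and 92.7), with −log10 q of 3.10, 3.59 and 11.30, where q is the p-value corrected by the authors' peak caller. Replicate 3 was the highest here, and replicates 1 and 2 lay below the middle of their lists. The 3 peaks had 236 bp in common, chr22:28800550-28800785. Their summits lay 7 bp downstream of the start in replicate 1, 175 bp upstream of it in replicate 2 and at the start itself in replicate 3. Of the 250 bases printed above, 216, 238 and 239 were inside the peak, and the ERSE (52 to 34 bp upstream) was inside it in all 3 libraries. A peak over the 300 bp start window, from 250 bp before the start to 50 bp of transcript, was present in 3 libraries at 34 of 15813 genes (0.215%), and XBP1 was the 1 member among them.

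The second shared place lay inside XBP1, 1957 to 2791 bp downstream of the start. Its strongest peaks had folds of 4.64, 8.42 and 6.57 in replicates 1, 2 and 3 (percentiles 37.6, 93.9 and 84.2), and −log10 q of 3.36, 11.74 and 7.56. Replicate 2 was the highest here, whereas replicate 3 was the highest at the start. The common stretch was 71 bp, chr22:28797988-28798058. A further small peak of replicate 2 (fold 4.47) touched the peak of replicate 3 at this place. Another place, 1107 to 1647 bp downstream, held peaks of replicate 2 (fold 4.88) and replicate 3 (fold 4.10) that shared 62 bp. The other two places were seen in 1 library each, 3136 to 3313 bp downstream in replicate 1 (fold 4.73) and 3913 to 4278 bp downstream in replicate 3 (fold 4.62). No peak lay farther than 4278 bp downstream, up to 1000 bp beyond the 3′ end of the gene. Exons and introns were not told apart here.

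Such a run of peaks was rare among genes. At least 3 peaks in each of the 3 libraries were found at 53 protein-coding genes (0.265%), of which 9 belong to the mitochondrial genome and 44 to nuclear chromosomes. Among those 44, XBP1 and the genes CKS2 and IRF2BP2 were the 3 with a span no longer than 6010 bp. This description was chosen after the values of XBP1 were seen.

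**Figure D3:**
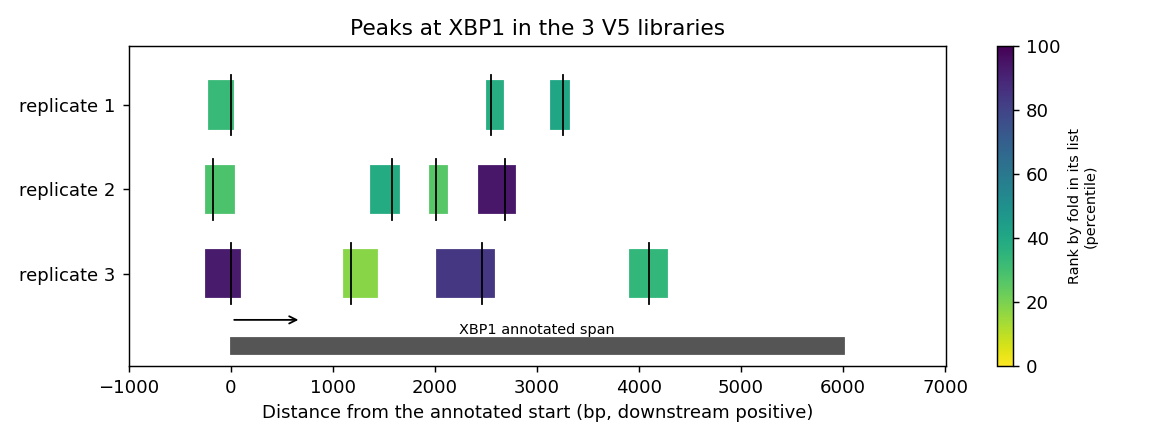
Peaks at XBP1 in each V5 library (rows), placed by distance in bp from the annotated start (x axis, transcription towards the right), with the summit as a black line and the colour giving the rank by fold in the list. Peaks of all 3 libraries lie over the start and between 1957 and 2791 bp downstream, and the darkest are at the start in replicate 3 and inside the gene in replicates 2 and 3.

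ATF4, the factor whose translation rises when the kinase PERK phosphorylates eIF2α, had no peak in any library. Its nearest peaks lay 976, 1570 and 1320 kb from the gene (gene ID 468, chr22:39520559-39522686) in replicates 1, 2 and 3. DDIT3 encodes CHOP, a target of ATF4 that promotes cell death under lasting stress (gene ID 1649, chr12:57516588-57520517). It had 1 peak, in replicate 1, with a fold of 3.76 (10.6th percentile) and −log10 q of 2.48. That peak lay 254 to 413 bp upstream of the start, wholly inside the span of the neighbouring gene MBD6 and 291 bp from LOC128125814, so it cannot be assigned to DDIT3 alone. In replicates 2 and 3 the nearest peak was 59.5 and 232 kb away. The peak at 254 bp was the farthest from its gene among those counted for the members. Where a member had no peak in a library, the nearest lay 59507 bp away or more, so none of these cases was close to the 1000 bp limit. Where a member had a peak, further peaks beyond that limit were not looked for.

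Among the chaperones, HSPA5 came next after XBP1. It encodes BiP, the major HSP70 of the endoplasmic reticulum, which also holds the stress sensors inactive (gene ID 3309, chr9:125234853-125241343, minus strand). Replicate 1 had a peak over its start, chr9:125241323-125241489, with a fold of 4.81 (44.7th percentile), −log10 q of 5.0 and a summit 30 bp upstream. That peak covered 146 of the 250 bases printed, among them the ERSE at 66 to 48 bp upstream, and its edge was 167 bp from HSPA5-DT, a noncoding gene on the other side. Replicate 2 had a peak inside the gene instead, 1212 to 1432 bp downstream of the start, with a fold of 8.36 (93.7th percentile) and −log10 q of 9.96. Replicate 3 had no peak nearer than 1280 kb. The 2 peaks did not overlap, so no place at HSPA5 was found in more than 1 library.

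HSP90B1 encodes GRP94, the HSP90 of the endoplasmic reticulum (gene ID 7184, chr12:103930410-103947926). It had 1 peak, in replicate 2, chr12:103930192-103930384, which ended 26 bp before the start. Its fold was 3.52 (4.03rd percentile of the list) and its −log10 q 1.69, so it was among the weakest peaks of that library. It covered 193 of the 250 bases printed and both ERSE matches. It also overlapped the end of the pseudogene TTC41P and lay 41 bp from the miRNA gene MIR3652. In replicates 1 and 3 the nearest peaks were 340 and 339 kb away. CALR encodes calreticulin, a lectin chaperone that holds glycoproteins during folding (gene ID 811, chr19:12938609-12944489). It had no peak, the nearest being 109, 537 and 210 kb away in replicates 1, 2 and 3, although an ERSE and a TATAAA match stand before its start.

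**Figure D4:**
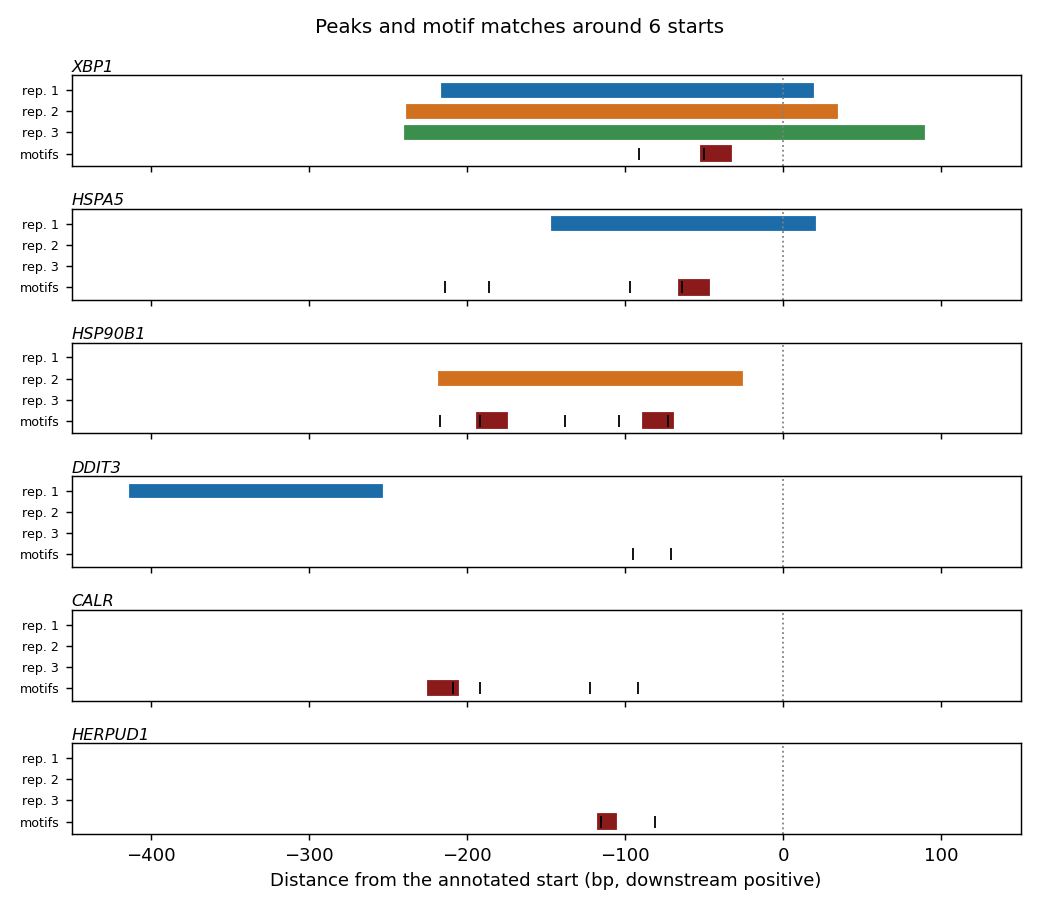
Peaks of replicates 1, 2 and 3 (coloured bars) and motif matches (bottom row: dark red boxes for ERSE or ERSE-II, black ticks for CCAAT boxes) from 450 bp before to 150 bp after the annotated start (x axis, bp) of 6 genes. XBP1 has bars of all 3 libraries over the start, HSPA5 of replicate 1, HSP90B1 of replicate 2, DDIT3 of replicate 1 farther upstream, and CALR and HERPUD1 have none.

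The remaining members, PDIA4, DNAJB9, SDF2L1 and HERPUD1, had no peak in any library. PDIA4 encodes a protein disulfide isomerase with several thioredoxin-like domains (gene ID 9601, chr7:149003051-149028505). Its nearest peaks lay 2720, 2720 and 5100 kb away in replicates 1, 2 and 3. DNAJB9, which encodes the BiP co-chaperone ERdj4 (gene ID 4189, chr7:108569874-108574850), had its nearest peaks 4500, 3560 and 554 kb away. SDF2L1 encodes a small endoplasmic reticulum protein found with BiP and its co-chaperones (gene ID 23753, chr22:21642302-21644299), and its nearest peaks were 1430, 723 and 91.6 kb away. HERPUD1, which encodes a membrane protein of the degradation machinery (gene ID 9709, chr16:56932142-56944864), also had none, with the nearest peaks 324, 118 and 324 kb away. An ERSE-II and a TATAAA match stand before its start. Of the 30 pairs of gene and library, 23 had no peak, and in 21 of these the nearest peak was more than 100 kb away. Most genes had no peak either, since 3.70, 5.75 and 4.87% of all protein-coding genes had one in replicates 1, 2 and 3. The lists are sparse, with 1599, 2557 and 1887 peaks. Distances were not taken for other genes, so long distances cannot be called a trait of the members. A missing peak means that the authors' caller listed none there, and at unknown depth this does not show that TAF2 was absent.

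**Figure D5:**
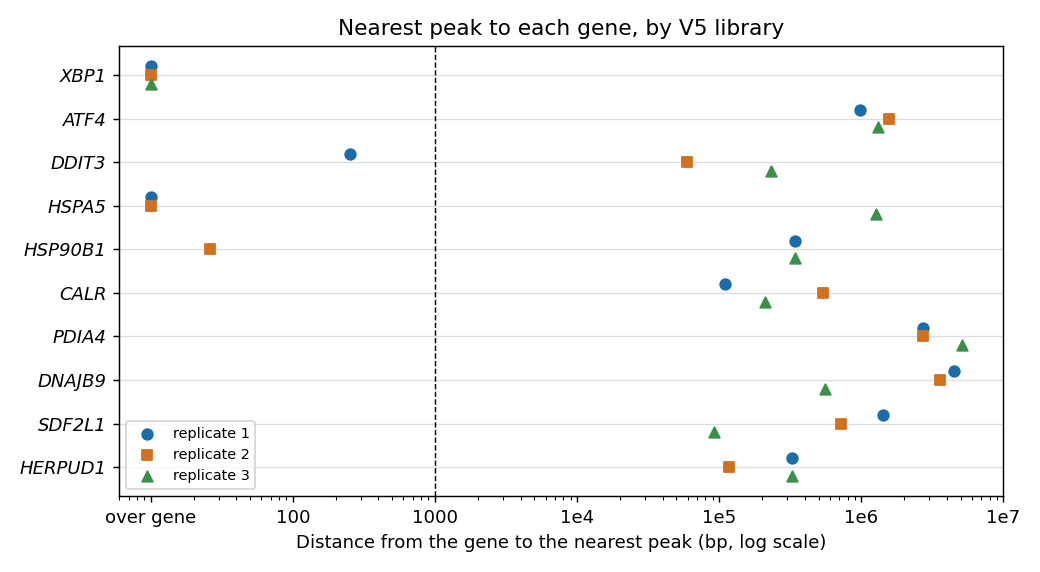
Distance in bp (log scale, x axis) from each gene (rows) to the nearest peak of each V5 library (symbols). Symbols at "over gene" stand for peaks that touch the span, and the dashed line marks the 1000 bp limit. For 23 of the 30 pairs the nearest peak is at least 59507 bp away. Distances for other genes were not taken.

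Of 44 further genes of the response, from a longer list of sensors, regulators, chaperones and degradation factors, a peak was found in any library at 8 (18.2%, against 8.67% of all protein-coding genes) and in at least 2 libraries at 2 genes (4.55%, against 3.76%). Per library the counts were 3 of 44 in replicate 1 (6.82%, against 3.70% of all protein-coding genes), 2 in replicate 2 (4.55%, against 5.75%) and 6 in replicate 3 (13.6%, against 4.87%), so the share in replicate 2 lay below the background. UGGT1, the glucosyltransferase that checks the folding of glycoproteins, had a peak in all 3 libraries, with folds of 6.35, 7.32 and 5.61 (percentiles 82.5, 86.9 and 67.6). These peaks lay deep inside the gene, with summits 79111 to 79151 bp from its start, and all overlapped. CREB3L2, a membrane-bound transcription factor of the secretory pathway, had overlapping peaks in replicates 2 and 3 with summits 52973 and 53024 bp downstream of its start (folds 6.23 and 5.21, chr7:137949034-137949206 and chr7:137949024-137949288) and another in replicate 2 (fold 4.88). Replicate 1 had none at CREB3L2. UGGT1 and CREB3L2 span 104478 and 127108 bp, against at most 25455 bp for the members. A longer span has more room for a peak, and the shares of the further genes were not set against genes of like length.

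The other 6 genes of this list had peaks in 1 library. They were PPP1R15B and CANX in replicate 1, and ATF3, HYOU1, P4HB and VCP in replicate 3. The CANX peak also lay over the neighbouring gene CBY3. Over the start window there were peaks in replicate 3 at HYOU1, an HSP110-type chaperone (fold 3.86, summit 172 bp upstream), and at P4HB, a protein disulfide isomerase (fold 2.84, 1.96th percentile, summit 106 bp upstream). The stress sensors ERN1, EIF2AK3 and ATF6 had no peak in any library. The members had a peak over the start window in any library in 3 of 10 cases (XBP1, HSPA5 and HSP90B1) and the further genes in 2 of 40 with a listed start, against 2.61% of all such genes. Per library these were 2, 2 and 1 members, against 0.740, 1.23 and 1.56% of genes in replicates 1, 2 and 3.

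Peak lists do not measure expression, so the liver identity of the line was looked at only by the same count. Of 8 hepatocyte genes (ALB, AFP, APOA1, APOB, TTR, HNF4A, FOXA1 and FOXA3), 6 had a peak in at least 2 libraries, against 3.76% of all protein-coding genes. The other 2 had a peak in no library. The hepatocyte genes were not set against genes of like length. These counts are over the span and 1000 bp around it. Over the start window, 2 of the 5 with a listed start had a peak in any library, against 2.61% of such genes, and 0 had one in at least 2 libraries.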

How the data were processed

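Per the labels, 3 V5 libraries and 3 controls were made from HepG2-TAF2-V5, and the peak lists of the V5 libraries, 1 per library, were analysed. The build was GRCh38, per the submitters' processing notes. The aligner, peak caller, threshold and control are not given in the sources used. In the deposited lists the fold is a linear ratio over background, and the deposited −log10 p and −log10 q are the caller's. The deposited score, 10 times −log10 q cut to a whole number, was not used. Fold was ranked within a list. Depth is unknown. A gene counted with 1 bp of a peak over its span (RefSeq, GRCh38.p14) or within 1000 bp, and all protein-coding genes were scored alike. Starts, strands and sequences came from the RefSeq promoter table. Of several starts the most upstream was used, and 4 of the 44 further genes had none. No test was made. A planned count of genes of other tissues is not reported here.

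Members and lists were chosen with earlier results of these data known. The rule named the 10 members, further genes with a peak, and annotated genes within 1000 bp of a member's peak. The hepatocyte genes were a fixed list. CBY3, CKS2, IRF2BP2, TRIB3 and the sensors ERN1, EIF2AK3 and ATF6 were picked with their values in view. The counting was tested on simulated peaks. Alternatives were stricter peaks, other windows, overlap rules and each replicate left out. Python 3.11.15, numpy 2.4.6, pandas 2.3.3 and matplotlib 3.10.9 were used.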

Additional observations from a re-analysis of the deposited data

How the results depend on the processing

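The 4 members with a peak in any library became 2 (XBP1 and HSPA5) when −log10 q had to be 3 or more, or 5 or more, with a fold of at least 5, and over the gene span alone. They became 3 with 250 bp either side. The 2 members with a peak in at least 2 libraries became 1 with a fold of at least 5, at an annotated end, and where the peaks had to overlap by at least 1 bp or by at least 0.5 of the shorter. That gene was XBP1. Leaving out each replicate gave 1 to 2 such members, 1 (XBP1) without replicate 1 or without replicate 2, and 3 to 4 with a peak in any library. At a −log10 q or fold of 5 or more, XBP1 had no peak in replicate 1, so the 1 member with a peak in all 3 libraries became 0. In replicate 1 the members with a peak numbered 1 (HSPA5) with −log10 q of at least 5 and 0 with a fold of at least 5. The 2 further genes with a peak in at least 2 libraries became 1 (UGGT1) with −log10 q of at least 5, 0 at an annotated end, and 1 to 2 with a replicate left out, 1 without replicate 2 or replicate 3. They became 3 with 5000 bp either side, where TRIB3 had a peak in all 3 libraries. By construction the settings leave fewer peaks, change the window, require overlap or leave out a library. What moved each count was not tested. Windows of 2000 and 5000 bp and the summit rule kept every count of members. Shares of all protein-coding genes are not given under these settings. The changes therefore cannot be called a trait of the members or of the further genes. No paired analysis was possible because the control libraries have no peak list here and no test was made. The lists carry no read totals, so how far depth limits a missing peak is unknown.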

Other observations

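The letters before a start and the presence of a peak were set side by side over all 15813 starts, a description chosen after the data were seen and with no test. A peak over the start window in any library was present at 3 of the 18 starts with an ERSE (16.7%), against 2.59% of starts without one. All 3 were members (XBP1, HSPA5 and HSP90B1), which were named with earlier results known. XBP1 had such a peak in all 3 libraries, HSPA5 in replicate 1 alone and HSP90B1 in replicate 2 alone (fold 3.52, 4.03rd percentile). Among starts with an ERSE-II, a peak in any library was present at 1 of 12, HYOU1 in replicate 3 (8.33%), against 2.60% of starts without one. With a CCAAT box the share was 3.43% of 5446 starts, against 2.17% of 10367 without, and with TATAAA it was 2.50%, against 2.62% without.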
